A study of Homo sapiens with 5 samples.

Results

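The genes described here are 42 genes of the endoplasmic reticulum (ER): its chaperones and folding enzymes, its degradation machinery and its stress response. They are 42 of 26364 genes in the deposited table, and all 42 symbols were found. They were chosen by name and function, with the difference between Ctr-KD and NSD2-KD cells already known and HERPUD2 already seen to be high in it. That difference was therefore used in the choice, and its values for these genes are given as a description. The cells were growing IMR-90 cells, a line of normal human lung fibroblasts, collected 24 h after transfection of siRNA. All of them, controls included, were transfected. There were 2 libraries of Ctr-KD cells, which received a control siRNA against luciferase, and 3 libraries of NSD2-KD cells, each with a different siRNA (NSD2-1, NSD2-2 or NSD2-3) against the histone H3 lysine 36 methyltransferase NSD2. With 1 library for each siRNA, a difference between siRNAs cannot be told apart from a difference between cultures.

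Secreted and membrane proteins fold in the ER with the help of HSPA5 (BiP), HSP90B1 (GRP94), the lectin chaperones CALR and CANX, and protein disulfide isomerases. Proteins that fail to fold are passed back to the cytosol and destroyed by ER-associated degradation (ERAD), in which the ubiquitin ligase SYVN1 and its partner SEL1L form the central complex. When unfolded proteins build up, the sensors ERN1 (IRE1), EIF2AK3 (PERK) and ATF6 act through the transcription factors XBP1, ATF4 and cleaved ATF6 to raise chaperone, ERAD and amino acid genes. Fibroblasts secrete much collagen and other matrix, and carry a large ER for it.

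The libraries held between 2473691 and 2845063 reads on genes. Between the Ctr-KD pair, read counts varied only slightly more than sampling of reads alone would give, with a chi-square of 1.05 per degree of freedom over genes, whereas every other pair of libraries had 3.87 to 5.29. The spread within Ctr-KD may therefore be technical. NSD2, listed under its older symbol WHSC1, had normalized counts (reads divided by a size factor for each library) of 463 and 443 in Ctr-KD cells and 90.2, 81.9 and 87.9 with the 3 siRNAs. The 9 fibroblast markers examined summed to between 202229 and 228133 normalized counts in every library, whereas 4 epithelial markers summed to at most 2.18 and 3 endothelial markers to at most 5.52. The 3 leukocyte markers, all of it CD68, summed to between 60.5 and 102.7 and the 3 plasma cell markers, nearly all of it SDC1, to between 143.9 and 215.7. SFTPC, KRT5, PECAM1, CDH5, PTPRC, CD3E and MZB1 were at 0 in all libraries.

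Many genes of this list are known to answer ER stress through short promoter elements, which are shown here because ATF6 and XBP1 are known to act through them. Promoter windows from RefSeq (GRCh38.p14, 250 bases before to 50 bases after the gene start) were found for 39 of the 42 genes, all except DERL1, DERL3 and PDIA3. The ER stress element (ERSE, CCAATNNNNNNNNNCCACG on either strand) lay in the windows of 6 of these 39 genes, against 0.0806% of all 27305 windows and 0.15% of the 8645 windows of tested genes. The list was chosen by function and holds genes known to answer ER stress through such elements. A share above that of all windows was therefore built into the choice. The stretches below run 5′ to 3′ on the strand of the gene, with the fixed bases of the element in capitals.
HSPA5, chr9:125241381-125241419, minus strand: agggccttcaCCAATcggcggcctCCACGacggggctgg
HSP90B1, chr12:103930206-103930244, plus strand: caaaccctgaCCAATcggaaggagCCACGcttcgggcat
HSP90B1, chr12:103930311-103930349, plus strand: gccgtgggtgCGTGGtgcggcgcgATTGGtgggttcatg
CALR, chr19:12938374-12938412, plus strand: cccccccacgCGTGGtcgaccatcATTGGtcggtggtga
CANX, chr5:179698768-179698806, plus strand: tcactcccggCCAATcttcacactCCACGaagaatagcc
XBP1, chr22:28800593-28800631, minus strand: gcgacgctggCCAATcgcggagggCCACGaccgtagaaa
CRELD2, chr22:49918544-49918582, plus strand: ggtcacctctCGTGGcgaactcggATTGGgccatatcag

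A second form, ERSE-II (ATTGGNCCACG), was present in HERPUD1, HYOU1 and SDF2L1, that is 3 of 39 windows against 0.116% of the windows of tested genes and 0.0549% of all. The short string CCACG, which is part of both elements, was common, with 26 of 39 windows (66.7%) against 50.9% of the windows of tested genes and 37.9% of all. The string TGACGT occurred in 7 of 39 (17.9%, against 12.2% for tested genes and 8.32% of all) and TGATGNAA, the core of the amino acid response element bound by ATF4, in 4 of 39 (ASNS, CHAC1, HERPUD1 and PPP1R15B, against 1.41% for tested genes and 3.67% of all). The paralogs HERPUD1 and HERPUD2 differed in these motifs. The 250 bases before the start of each gene are shown with the fixed bases of any ERSE or ERSE-II in capitals, because the 2 genes stood apart in the libraries.
HERPUD1, chr16:56931892-56932141, plus strand: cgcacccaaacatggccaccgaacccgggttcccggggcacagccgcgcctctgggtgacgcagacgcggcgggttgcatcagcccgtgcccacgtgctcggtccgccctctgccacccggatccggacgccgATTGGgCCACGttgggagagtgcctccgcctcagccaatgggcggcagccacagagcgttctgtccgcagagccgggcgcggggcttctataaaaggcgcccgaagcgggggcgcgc
HERPUD2, chr7:35695136-35695385, minus strand: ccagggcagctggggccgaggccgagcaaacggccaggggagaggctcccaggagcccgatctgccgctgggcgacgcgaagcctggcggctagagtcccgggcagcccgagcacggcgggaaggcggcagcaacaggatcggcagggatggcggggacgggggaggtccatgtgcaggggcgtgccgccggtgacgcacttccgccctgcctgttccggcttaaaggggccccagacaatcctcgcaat
Both stretches had a GC content of 71.6%. The HERPUD2 window held none of the 5 strings searched, which says only that these letters are not in it.

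In NSD2-KD cells, HERPUD2 rose about 3.41-fold. Of the 41 genes tested, 39 had a log2 difference within a 1.5-fold change in either direction, as did 93.1% of all tested genes, and the other two were HERPUD2 and EDEM3, which was not called. Of the 42 genes, 41 reached a mean of 10 normalized counts and were tested in 1 fit over 11313 genes, with limma on log2(normalized count + 1), which understates the changes of genes with low counts. At an adjusted p under 0.05 over all of these, 1 of the 41 was called higher, where 0.0354% of all tested genes were, and 0 of the 41 were called lower, where 0.053% of all were. At an unadjusted p under 0.05 there were 2 of 41 genes, HERPUD2 and CANX, where 9.18% of all tested genes were. edgeR and DESeq2 on the recovered reads of the same libraries also called HERPUD2 alone. HERPUD2 was known to be high when the list was chosen, so its call was part of the choice. All 3 NSD2-KD libraries lay above both Ctr-KD libraries for 7 of the 41 genes (13.8% of all tested genes) and below both for 5 (13.9% of all). The median log2 difference was 0.05 over the 41 genes and -0.01 over all tested genes. It was -0.04 for the chaperones and folding enzymes, 0.11 for ERAD, 0.13 for the sensors and transcription factors and 0.13 for the ATF4 targets. For 38 of the 41 genes, the 95% interval of the log2 difference from limma lay within a 2-fold change in either direction, as it did for 83.1% of all tested genes. The exceptions were HERPUD2, EDEM3 and ERN1. No gene of the list changed sign under TMM scaling or quantile normalization, but the sign of small differences depended on single libraries. It changed for 9 genes without Ctr-KD replicate 1, for 5 without Ctr-KD replicate 2, and for 2, 5 and 6 without NSD2-1, NSD2-2 and NSD2-3. The largest log2 difference among these genes was 0.23 in size.

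**Figure D1:**
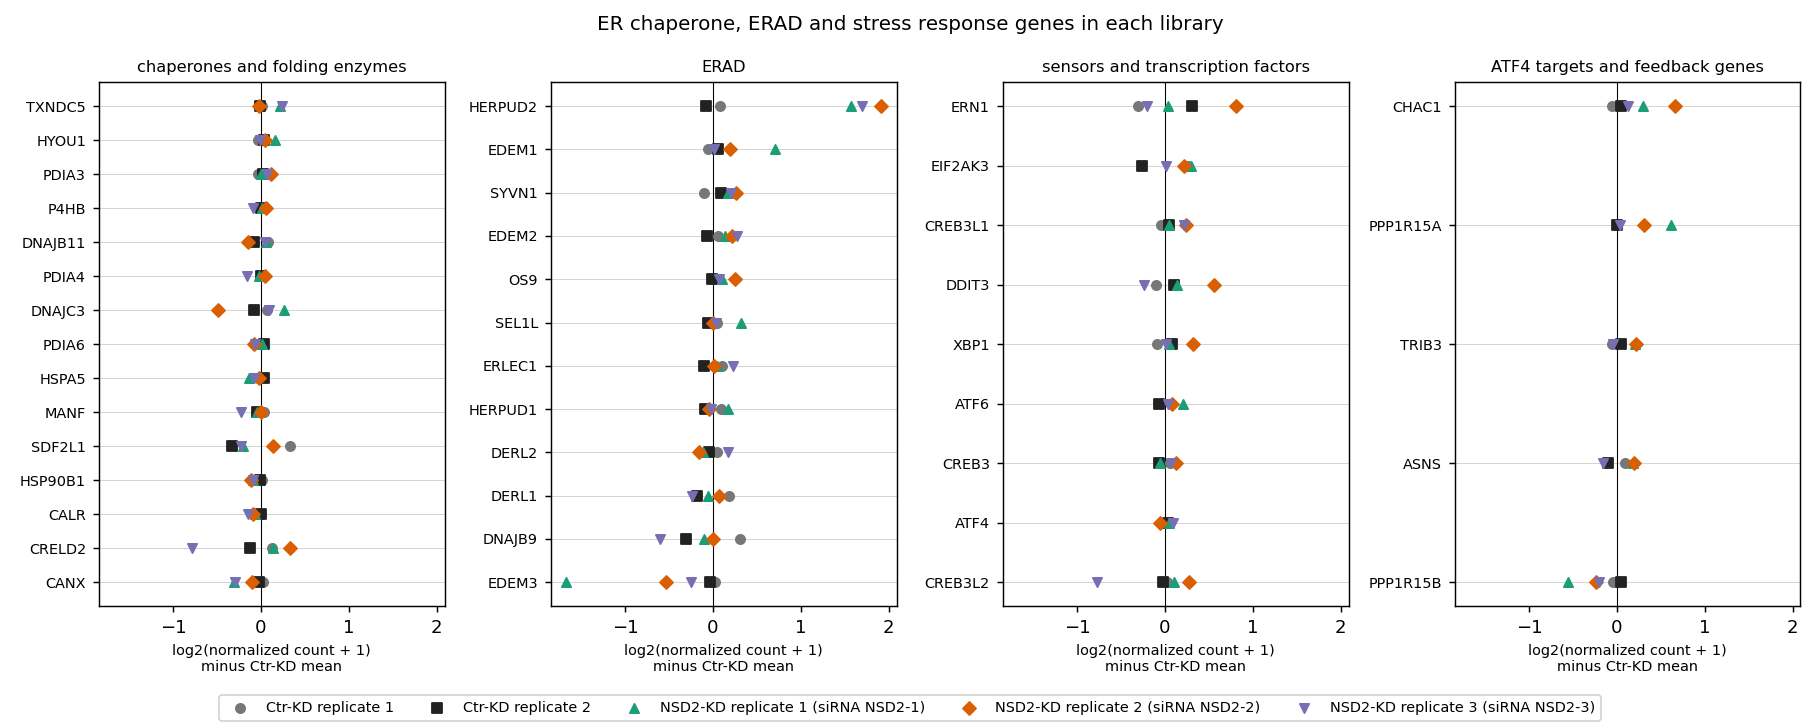
Each point is 1 library, placed by its log2(normalized count + 1) minus the mean of the 2 Ctr-KD libraries, for the 41 tested genes in their 4 role groups. HERPUD2 stands to the right with all 3 siRNAs, whereas several genes, such as EDEM3, CREB3L2, EDEM1 and CRELD2, each have 1 siRNA far from the other libraries.

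**Figure D2:**
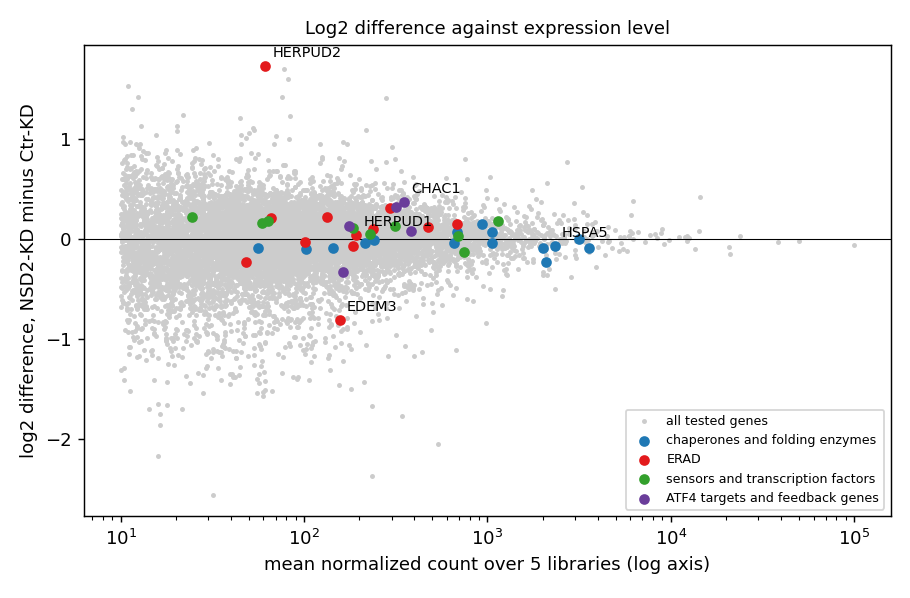
The log2 difference (NSD2-KD minus Ctr-KD) of each tested gene is plotted against its mean normalized count on a log axis, with all 11313 tested genes in grey and the ER genes coloured by role. HERPUD2 has the highest log2 difference of all tested genes, 1.73, and the chaperones with the highest counts lie near 0 at the right of the plot.

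Of the chaperones and folding enzymes, none of the 15 was called by limma, edgeR or DESeq2, and 1, CANX, had an unadjusted p under 0.05. HSPA5, the main ER chaperone of the HSP70 family, had normalized counts of 2338 and 2452 in Ctr-KD cells and 2185, 2362 and 2271 with NSD2-1, NSD2-2 and NSD2-3. The groups overlapped, and the log2 difference was -0.08 (95% interval from -0.26 to 0.11 in limma). HSP90B1, the ER member of the HSP90 family, had 2110.15 and 2087 in Ctr-KD cells and 1977, 1939 and 1972 in NSD2-KD cells. Every NSD2-KD library was lower than both controls, at 92.4% to 94.2% of the Ctr-KD mean, and the log2 difference was -0.10 (adjusted p = 0.768 from limma).

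CALR and CANX, the soluble and the membrane-bound lectin chaperones of newly made glycoproteins, had the same order. CALR had 3713 and 3705 normalized counts in Ctr-KD cells and 3554, 3483 and 3357 in NSD2-KD cells, without overlap, and a log2 difference of -0.10 (95% interval from -0.27 to 0.08). CANX had 2330.2 and 2253 against 1855, 2131 and 1864, and its log2 difference of -0.24 was the lowest of the 15 (standard error 0.09, adjusted p = 0.494 from limma). The libraries with NSD2-1 and NSD2-3 held 80.9% and 81.4% of the Ctr-KD mean of CANX and the library with NSD2-2 held 93%. Of the 15 genes, 0 had all 3 NSD2-KD libraries above both controls (13.8% of all tested genes). All 3 were below both for 3 of the 15 (20%, against 13.9% of all tested genes).

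The disulfide isomerases PDIA3, PDIA4, PDIA6, P4HB and TXNDC5 overlapped between the groups, with log2 differences from -0.04 for PDIA6 to 0.15 for TXNDC5. P4HB, which is also a subunit of the collagen prolyl 4-hydroxylase, had 3182 and 3167 normalized counts in Ctr-KD cells and 3194, 3315 and 2995 in NSD2-KD cells, on either side of the controls. The HSPA5 cochaperones DNAJB11, DNAJC3 and SDF2L1, the HSP70-like protein HYOU1, and MANF and CRELD2 also overlapped, with log2 differences from -0.10 for CRELD2 to 0.07 for HYOU1. The widest spread was that of CRELD2, at 113 and 94.6 against 114, 131 and 59.5, with the library of NSD2-3 alone below the controls. DNAJC3 ran from 153 with NSD2-2 to 258 with NSD2-1, around controls of 226 and 204, and SDF2L1 had its highest and lowest values, 72.4 and 45.3, in the 2 Ctr-KD libraries. Summed, the 15 genes took 0.711% and 0.707% of all reads on genes in the Ctr-KD libraries and 0.692%, 0.678% and 0.665% in the NSD2-KD libraries. The exact 95% binomial intervals, which cover counting error only, reached down to 0.697% in Ctr-KD cells and up to 0.702%, 0.689% and 0.675% in NSD2-KD cells. The sum was thus lowest with NSD2-3. It is a share of all reads on genes, so it also depends on the reads of other genes. It mostly follows the genes with many reads. The largest falls in mean normalized count were those of CANX (2292 to 1950) and CALR (3709 to 3465). PDIA3, TXNDC5 and HYOU1 had higher means in NSD2-KD cells, and the median log2 difference of the 15 genes was -0.04. Bulk RNA does not show whether fewer cells expressed these genes or each cell held less of their RNA.

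The 6 genes with an ERSE (HSPA5, HSP90B1, CALR, CANX, XBP1 and CRELD2) lay between -0.24 and 0.13 on the log2 scale of the difference, and their median was -0.10. The 3 with an ERSE-II (HERPUD1, HYOU1 and SDF2L1) had log2 differences from -0.09 to 0.07. The lowest, that of SDF2L1, was 0.24 without Ctr-KD replicate 1 and -0.43 without Ctr-KD replicate 2. None of these 9 genes was called by limma, edgeR or DESeq2.

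Among the 13 ERAD genes, HERPUD2 was the 1 gene called. HERPUD2 and its paralog HERPUD1 (Herp) encode ER membrane proteins with a ubiquitin-like domain, and HERPUD1 is known to join the SYVN1 complex and to be induced by ER stress. HERPUD2 had normalized counts of 26.7 and 23.7 in Ctr-KD cells, from 28 and 23 reads, and of 76.4, 97.2 and 83.9 in NSD2-KD cells, from 83, 89 and 86 reads. The NSD2-KD libraries stood well above both controls, at 303%, 386% and 334% of the Ctr-KD mean. The means were 25.2 ± 2.13 (SD, n = 2) and 85.8 ± 10.6 (SD, n = 3), and HERPUD2 rose by 1.73 on the log2 scale (95% interval from 1.29 to 2.17, standard error 0.19, adjusted p = 0.0322 from limma), the highest of all 11313 tested genes. The smallest p that exact permutation of these 5 libraries allows is 0.1, so the value rests on a fit that shares the spread between genes. With either Ctr-KD library left out, the adjusted p of HERPUD2 was 0.848 or 0.92, and NSD2 itself was then not called either (0.0926 or 0.0788). Without the library of NSD2-2 it was 0.0561, and without the mean-variance trend of limma 0.112. HERPUD2 lies on the minus strand of chromosome 7 from 35672269 to 35737069 (GRCh37), where exons of HERPUD2-AS1 overlap its own on the other strand. The strand setting of the counting is not given in the sources used here, so reads of the 2 genes cannot be told apart. Exons of other genes overlap those of 24 of the 42 genes, HERPUD2, CANX, CALR, HSP90B1, OS9 and SYVN1 among them. For some, such as SYVN1, an overlapping gene lies on the same strand.

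HERPUD1 did not share this difference. Its normalized counts were 201 and 177 in Ctr-KD cells and 213, 184 and 185 in NSD2-KD cells, with overlapping groups and a log2 difference of 0.04 (95% interval from -0.27 to 0.34 in limma). Of the reads on both genes together, HERPUD2 took 11.7% and 11.8% in the Ctr-KD libraries, with exact 95% intervals from 7.63% to 17.2%. In the NSD2-KD libraries it took 26.4%, 34.6% and 31.2%, with intervals from 21.6% to 40.8%. Per kilobase of canonical transcript, the level of HERPUD1 was 66.2 normalized counts in Ctr-KD cells and 67.9 in NSD2-KD cells, and that of HERPUD2 was 8.73 and 29.8.

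**Figure D3:**
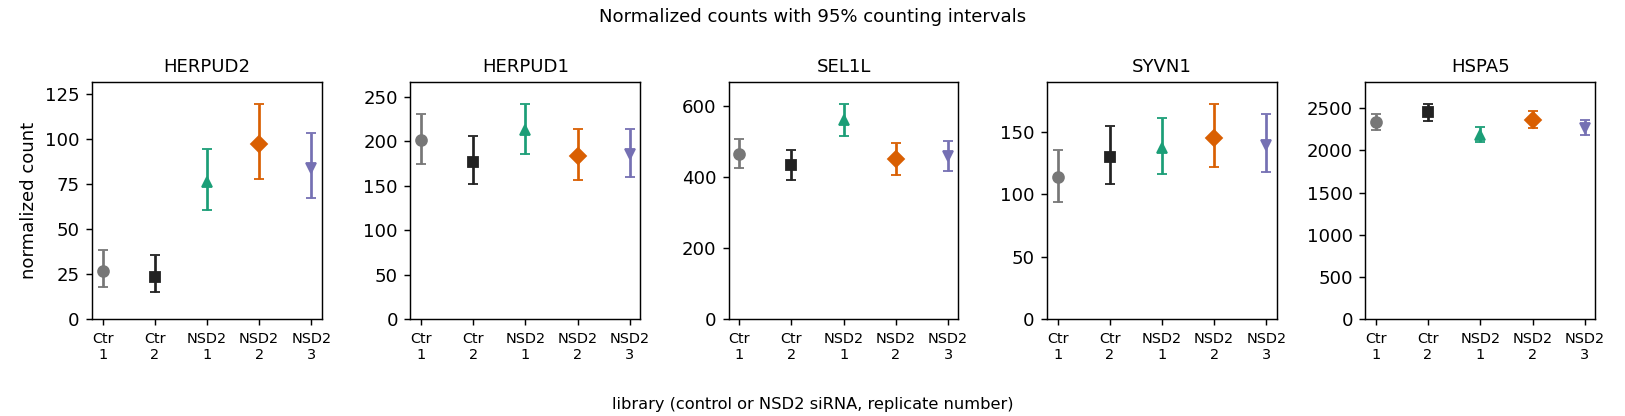
Normalized counts of HERPUD2, HERPUD1, SEL1L, SYVN1 and HSPA5 are shown for each library on axes that start at 0, with exact 95% Poisson intervals of the read count as bars. HERPUD2 is at 26.7 and 23.7 in the Ctr-KD libraries and between 76.4 and 97.2 in the NSD2-KD libraries, and HERPUD1 and HSPA5 overlap between the groups.

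The ligase complex itself differed little. SYVN1 had normalized counts of 113 and 129.6 in Ctr-KD cells and 137, 145 and 139.6 in NSD2-KD cells. All 3 were above both controls, and the log2 difference was 0.21 (95% interval from -0.10 to 0.52, adjusted p = 0.699 from limma). SEL1L overlapped between the groups, at 464 and 432 against 559, 449 and 458, with NSD2-1 alone above the controls. The lectin OS9, which hands misfolded glycoproteins to SEL1L, lay without overlap at 646 and 641 against 691, 769 and 674, 0.14 higher on the log2 scale (adjusted p = 0.733 from limma), and the related ERLEC1 overlapped with a log2 difference of 0.10. The derlins DERL1 and DERL2, membrane proteins of the exit channel, had log2 differences of -0.08 and -0.03 with overlap. DERL3 was not tested, with 0 reads in both Ctr-KD libraries and 2, 1 and 1 reads in the NSD2-KD libraries, which is at or under the floor of 3 reads. DNAJB9, an HSPA5 cochaperone that is also an ERAD factor, had few reads and overlapped, at 64.8 and 42.2 against 48.8, 52.4 and 34.2.

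The products of the EDEM genes trim mannose from misfolded glycoproteins and so mark them for ERAD, and none of the 3 genes was called by limma, edgeR or DESeq2. EDEM3, on chromosome 1 from 184659371 to 184724041 (GRCh37), had 208 and 199.6 normalized counts in Ctr-KD cells and 63.5, 141 and 171 in NSD2-KD cells. All 3 NSD2-KD libraries were below both controls, and NSD2-1 was far below the others, at 31.2% of the Ctr-KD mean against 69.2% and 83.9%. Its log2 difference of -0.82 was the lowest of the list, with a standard error of 0.36 and an adjusted p of 0.548 from limma. EDEM1 had 243 and 263 against 412, 291 and 255, so that NSD2-1 was at 163% of the Ctr-KD mean and NSD2-3 at 101%, and the groups overlapped (log2 difference of 0.30, adjusted p = 0.697 from limma). EDEM2 lay without overlap but close, at 62.9 and 57.6 against 66.3, 69.9 and 73.2 (log2 difference of 0.21, adjusted p = 0.762 from limma). With NSD2-1, EDEM1 and EDEM3 thus stood on opposite sides of the controls.

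None of the 9 sensors and transcription factors was called by limma, edgeR or DESeq2, and none had an unadjusted p under 0.05. The sensor kinase ERN1 was the least expressed, with 17.1 and 26.7 normalized counts against 22.1, 38.2 and 18.5, and its 95% interval was wide, from -0.60 to 1.03 on the log2 scale. The sensor kinase EIF2AK3 had 69.5 and 48.4 against 71.8, 67.7 and 58.6, and the membrane-bound factor ATF6 had 186 and 169 against 204, 187 and 182. All 3 sensors overlapped between the groups.

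XBP1, whose messenger RNA is spliced by ERN1, had 278 and 313 normalized counts in Ctr-KD cells and 305, 368 and 298 in NSD2-KD cells. The library of NSD2-2 was above both controls and the other 2 were between them. Counts per gene do not separate spliced from unspliced XBP1. ATF4, which is raised mainly at translation when EIF2AK3 or its sister kinases act, had 665 and 698 against 705, 656 and 728 (log2 difference of 0.03, 95% interval from -0.19 to 0.25 in limma). DDIT3 (CHOP), its proapoptotic target, had 50.5 and 58.6 against 59.8, 80.8 and 45.9, with NSD2-2 highest and NSD2-3 lowest of the 5 libraries. Exons of MARS1 and MBD6 overlap DDIT3 on the other strand.

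The CREB3 family encodes membrane-bound transcription factors that are cut free in the Golgi, and CREB3L1 is known to act on collagen genes. CREB3L1 was abundant and without overlap, at 1020.3 and 1089 normalized counts against 1093, 1247 and 1231 (log2 difference of 0.17, 95% interval from -0.05 to 0.40, adjusted p = 0.654 from limma). Its lowest NSD2-KD library was above the higher control by less than 4 normalized counts. CREB3 overlapped, with a log2 difference of 0.05. CREB3L2, on chromosome 7 from 137559725 to 137686832 (GRCh37), had 781 and 754 against 827, 928 and 448. The libraries of NSD2-1 and NSD2-2 were above both controls and that of NSD2-3 was at 58.4% of the Ctr-KD mean, so the siRNAs pointed in opposite directions.

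Among the 5 ATF4 targets and feedback genes, none was called by limma, edgeR or DESeq2, and CHAC1 and PPP1R15A had their highest levels with different siRNAs. CHAC1, which breaks down glutathione, had 286 and 307 normalized counts in Ctr-KD cells and 365, 469 and 323 in NSD2-KD cells. All 3 NSD2-KD libraries were above both controls, from 109% to 158% of the Ctr-KD mean, and the log2 difference was 0.36 (95% interval from -0.0041 to 0.73, adjusted p = 0.548 from limma). PPP1R15A (GADD34), the stress-induced subunit of the phosphatase that resets eIF2α, had 273 and 275 against 419.6, 339.7 and 281. It was also without overlap, but NSD2-3 stood at 103% of the Ctr-KD mean and NSD2-1 at 153% (log2 difference of 0.32, adjusted p = 0.619 from limma). PPP1R15B (CReP), the constitutive subunit of the same phosphatase, was below both controls in all 3 libraries, at 179 and 190.3 against 125, 156 and 160.1 (log2 difference of -0.33, 95% interval from -0.68 to 0.01, adjusted p = 0.56 from limma). The pseudokinase gene TRIB3 and ASNS, which makes asparagine, overlapped, with log2 differences of 0.13 and 0.07. Together the 5 genes took 0.049% and 0.0486% of reads on genes in Ctr-KD cells and 0.0581%, 0.0585% and 0.0476% with NSD2-1, NSD2-2 and NSD2-3. The sum was above both controls with NSD2-1 and NSD2-2. With NSD2-3 it was slightly below both, and its exact 95% binomial interval, from 0.045% to 0.0503%, held both Ctr-KD values.

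Several genes had 1 NSD2-KD library apart from the other 2. By a rule set after the values were seen, a gene was taken to have moved with 1 siRNA when 1 NSD2-KD library was at least 1.5-fold from the Ctr-KD mean and the other 2 were within 1.25-fold, among genes averaging 100 normalized counts or more. This held for 4 of 34 genes of the list (11.8%) and for 6.39% of the 5120 such genes in all. The 4 were EDEM1 and PPP1R15A with NSD2-1, CHAC1 with NSD2-2 and CREB3L2 with NSD2-3. PPP1R15A (153% of the Ctr-KD mean with NSD2-1, 124% with NSD2-2) and CHAC1 (158% with NSD2-2, 123% with NSD2-1) were close to these limits. For both genes all 3 NSD2-KD libraries lay above both controls, so their place here depends on the limits chosen. EDEM3 did not meet the rule because its library of NSD2-2 was also low. The median of the 41 genes lay at 0.05, 0.07 and -0.01 on the log2 scale with NSD2-1, NSD2-2 and NSD2-3 relative to the Ctr-KD mean. The median standard deviation between the 3 siRNAs was 0.14 over the 41 genes and 0.20 over all tested genes, where counts are lower on average.

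**Figure D4:**
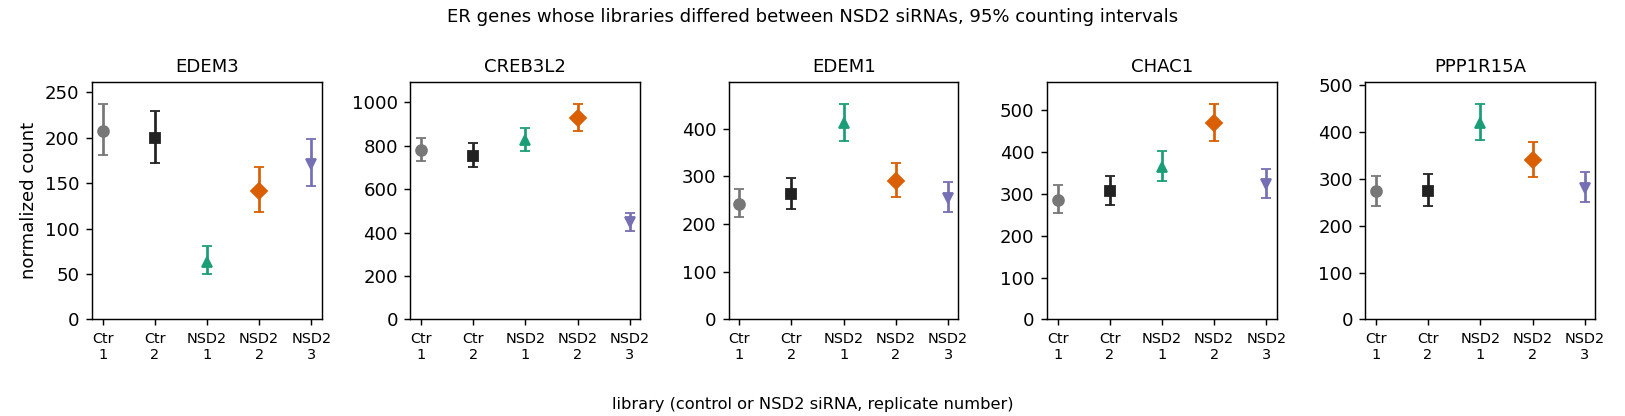
Normalized counts of EDEM3, CREB3L2, EDEM1, CHAC1 and PPP1R15A in each library are shown on axes that start at 0, with exact 95% Poisson intervals of the read count as bars. The lowest EDEM3 library (63.5) is that of NSD2-1 and the lowest CREB3L2 library (448) that of NSD2-3, each with an interval apart from those of the other 4 libraries.

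Per kilobase of canonical transcript, the levels ran from 1951 normalized counts for CALR in Ctr-KD cells through P4HB (1303), HSP90B1 (754) and HSPA5 (611) to ATF4 (480.1) and PDIA6 (473). ATF4 and CREB3L1 were the transcription factors with the highest levels, and CREB3L1 (395 per kilobase) was above all ERAD genes. OS9 (239.9) had the highest level among ERAD genes. At the low end, EIF2AK3 (13), HERPUD2 (8.73) and ERN1 (2.78) came before DERL3, which was listed at 0 in both Ctr-KD libraries. Neighbours such as ATF4, PDIA6 and CANX (466) differed by less than their spread over libraries. In NSD2-KD cells HERPUD2 was at 29.8 per kilobase, between EDEM2 (37) and PPP1R15B (28).

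**Figure D5:**
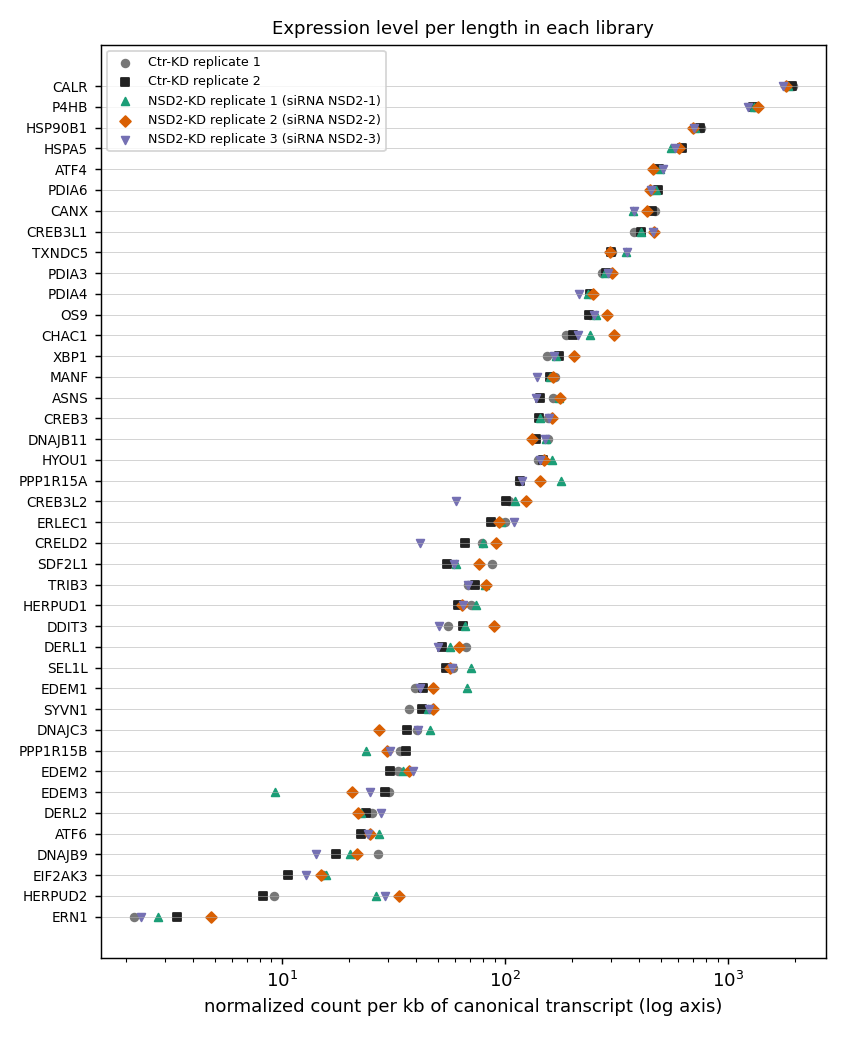
Normalized counts per kilobase of canonical transcript are shown on a log axis for the 41 genes with reads in Ctr-KD cells, ordered by their Ctr-KD mean, with 1 point for each library. Levels span from 2.78 for ERN1 to 1951 for CALR, and HERPUD2 is the gene whose NSD2-KD points all sit far to the right of its Ctr-KD points.

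Other ER genes were taken from 4 lists written from general knowledge: the translocon and glycosylation, further folding enzymes, further ERAD genes, and further stress sensors and targets. Of their 168 genes, 160 were tested. None was called by limma, and 6 had an unadjusted p under 0.05, a smaller share than the 9.18% of all tested genes. DESeq2 called 1, CALU, and edgeR called 0. The median log2 difference of the 160 genes was 0.02, and 22 (13.8%) lay without overlap above and 17 (10.6%) below the controls, where 13.8% and 13.9% of all tested genes did.

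CALU, which encodes the calcium-binding protein calumenin of the ER and Golgi, had 2642 and 2542 normalized counts in Ctr-KD cells and 3641, 4021 and 3510.2 in NSD2-KD cells. The NSD2-KD libraries were all above the controls, at 135% to 155% of their mean. The log2 difference was 0.52 with a standard error of 0.09, and the adjusted p was 0.147 in limma, 0.123 in edgeR and 0.0364 in DESeq2. ERO1A, the oxidase that recharges disulfide isomerases, lay at 165 and 150.2 against 209.8, 236 and 184 (0.41 on the log2 scale, adjusted p = 0.423 from limma). Of the 42 further folding enzymes tested, TMX1 (-0.72) and TXNDC16 (-0.69) had the lowest log2 differences among those without overlap. Relative to Ctr-KD, TMX1 stood at 25.8% in the library of NSD2-1 but at 97.2% and 88.4% in those of NSD2-2 and NSD2-3, so its value rests on the library of NSD2-1, and TXNDC16 was at 58%, 41.3% and 86.2%, from few reads.

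In the translocon and glycosylation list, the non-overlapping genes with the lowest log2 differences were SEC61A2 (-0.37) and SSR1 (-0.36) and those with the highest were OST4 (0.22) and SRP14 (0.19). SRP9, a subunit of the signal recognition particle, had a log2 difference of -0.27 with an adjusted p of 0.544 from limma. Among the further ERAD genes, NGLY1 (log2 difference of 0.14) lay above and UBE2K (-0.36) below both controls without overlap. Among the 48 stress sensors and targets tested, CEBPB, a transcription factor that can pair with ATF4 family members, had 292 and 253 against 390.2, 399 and 357 (log2 difference of 0.49, adjusted p = 0.263 from limma). BBC3 (PUMA), a proapoptotic gene and p53 target, had 31.4 and 41.2 against 46, 63.4 and 59.5 (log2 difference of 0.62, adjusted p = 0.437 from limma). PSAT1, an enzyme of serine synthesis, lay at 887 and 853 against 717, 792 and 649 (-0.28, adjusted p = 0.484 from limma), and CREBZF had a log2 difference of -0.18.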

How the data were processed

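mRNA-seq was performed by the authors on IMR-90 cells 24 h after siRNA transfection, with 2 Ctr-KD and 3 NSD2-KD libraries, grouped by the labels. Per the methods, reads were trimmed with Trimmomatic and aligned by HISAT2 (build hg19). SAMtools then selected those with a unique position, and featureCounts assigned them to genes. The annotation and strand setting are not given in the sources used here. The deposited signal is the count of reads on each gene divided by 1 DESeq2 size factor for each library. Dividing by the smallest value of a library returned whole reads for 100% of values (tolerance 0.01). A second deposited table, of the authors' own comparison, was not used. A floor of 3 reads was 2.76 to 3.28 normalized counts.

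The main test was limma 3.58.1, its prior following expression level (the trend option), on log2(normalized count + 1) for genes with a mean of at least 10, two-sided, with Benjamini-Hochberg adjustment over 11313 genes. Alternatives were edgeR 4.0.16 and DESeq2 1.42.0 on the recovered reads, other pseudocounts, filters and scalings, a replicate block and each library left out. On simulated data with 200 genes changed 4-fold, limma called 188 of 193 tested, and 6 unchanged genes. The simulated libraries shared the same noise and had no difference between siRNAs, so this does not show how many changes the test would find here. The libraries are called biological replicates in the methods, but separate cultures are not described, so p-values measure the spread between these libraries. Within Ctr-KD that spread may be technical. Within NSD2-KD it was larger (chi-square of 5.05 to 5.29 per degree of freedom) and includes any difference between siRNAs. The genes, lists and tests were chosen with earlier results of these data known. Named in full were called genes, main sensors and chaperones, and in each role group the 2 largest non-overlapping differences each way. One gene that this rule names is not reported here. ERSE-II and the rule on single siRNAs were added after the data were seen. Transcript lengths and overlaps came from GENCODE v44 on GRCh37, the assembly of hg19.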

Additional observations from a re-analysis of the deposited data

How the results depend on the processing

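The count of ER genes of the list called higher was 1 (HERPUD2) and fell to 0 without limma's trend, without either Ctr-KD library, without the NSD2-2 library, and with the Ctr-KD libraries averaged as 1 replicate, an alternative chosen after the data were seen; over the libraries left out in turn it ranged from 0 to 1. None was called lower under any alternative. The log2 difference of HERPUD2 stayed between 1.59 and 1.81 in all 17 alternatives. Over all tested genes, 4 were called higher and 6 lower. Without the trend these counts were 0 and 1, with quantile normalization 8 higher, with edgeR 11 lower, with DESeq2 14 and 41, and with the averaged controls 0 and 0. Leaving out 1 library gave 0 to 8 higher and 0 to 22 lower. Genes of the other ER lists called higher went from 0 to 1 (CALU) with DESeq2, quantile normalization or the replicate block. The log2 difference of NSD2 was -2.37, and lost its call with the averaged controls (-2.37). With 1 Ctr-KD library, where the lone library is assumed to vary like the others, it was -2.41 or -2.34 and not called, and over all libraries left out it ranged from -2.41 to -2.33.

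The replicate numbers are not known to pair libraries across groups, and same-numbered libraries did not deviate together (correlations of -0.015 and -0.027 over genes). NSD2-KD replicate 3 has no control with its number, so the replicate block also takes NSD2-3 out of the comparison, and its log2 differences equal those without that library (HERPUD2 1.74 in both). With the replicate block, 18 genes were called higher and 84 lower, and HERPUD2 was called with an adjusted p of 0.0137. With 2 against 3 libraries at this depth, the widest standard errors of the list in limma were those of EDEM3 (0.36) and ERN1 (0.35). ERN1 had few reads, whereas EDEM3 had the library of NSD2-1 far below the others. SDF2L1 and DNAJB9, also with few reads, had 0.24 and 0.27, and CREB3L2, with many more reads, had 0.27.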

Other observations

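Among the other ER genes, 14 of the 123 that averaged 100 normalized counts or more moved with 1 siRNA by the rule given above (11.4%, against 6.39% of all such genes). With NSD2-3, both subunits of the cystine transporter were high. SLC7A11 had normalized counts of 715 and 698 in Ctr-KD cells, 876 with NSD2-1, 643 with NSD2-2 and 2246 with NSD2-3. SLC3A2 had 833 and 812, then 666, 815 and 1296. In the same library, UBE2K (59.5% of the Ctr-KD mean) and VIMP (48.3%) were low. With NSD2-1, TRAM1 (47.1%), TMX1 (25.8%) and SLC7A5 (54.6%) were low. With NSD2-2, SSR1 (60.8%), SRPR (49.4%), RCN2 (43%), RNF185 (50.6%), FAF2 (29.3%) and SLC7A1 (53.8%) were low and GADD45A was high (157%). Each of these values is from 1 library, and a test of the difference between siRNAs was not possible.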
